A study of Rattus norvegicus with 8 samples.

Results

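Heat shock protein genes encode the chaperones that help proteins fold, refold or be degraded. Their transcripts were examined in glomeruli of 2 inbred rat strains, Dahl and SHR. The 10 genes are Hspa1b, Hspb1, Hspb8, Dnajb1, Hsph1, Hsp90aa1, Hspa8, Hspa5, Hspd1 and Cryab, out of 14217 genes that were alone on at least 1 probe set of the array. They were taken by symbol, and every probe set annotated to them was used, which gave 14 of the 31042 probe sets tested. A probe set is a group of short oligonucleotides that together measure 1 transcript. Hspb8, Dnajb1, Hsph1 and Hsp90aa1 have 2 probe sets each, and the main probe set is the brighter by its mean over the 8 arrays. For 7 genes the main probe set is annotated to that gene alone. The other 3 share theirs, so their values cannot be assigned to 1 gene: Hspa1b shares with Hspa1a, Hsp90aa1 with its pseudogene Hsp90aa1-ps17, and Hspa8 with Haus8l2. In the text below these 3 probe sets are called by the names Hspa1b, Hsp90aa1 and Hspa8.

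Male Dahl salt-sensitive rats, which become proteinuric without intervention, were compared with male spontaneously hypertensive rats (SHR), which do not. Glomeruli were isolated from the left kidney by magnetic retraction at 4 and 6 weeks of age, and all rats had received a low-salt diet. Each of the 4 groups held 2 rats with 1 array each, named here by group and replicate. The comparison asks which transcripts differ between the strains and from 4 to 6 weeks of age, and because SHR is another inbred hypertensive strain and not the parent strain of Dahl, strain background and proneness to proteinuria cannot be told apart.

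Chaperones fall into families by size and partner. HSP70 proteins bind unfolded stretches with the help of HSP40 (DnaJ) partners and HSP110 exchange factors, HSP90 acts later on client proteins, and small heat shock proteins hold unfolding proteins and bind cytoskeletal filaments. Some are made at all times, whereas others are induced by heat shock factor 1, which binds repeated short elements upstream of its target genes, and stress in the endoplasmic reticulum (ER) acts through a different element. In podocytes, the filtering epithelial cells of the glomerulus, the small heat shock protein Hspb1 has long been studied as a regulator of the actin cytoskeleton.

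The promoters are shown because they divide the members by the elements they carry. RefSeq sequences of the GRCr8 build covered 7 of the 10 members, and those of Hspa1b, Hsp90aa1 and Cryab were not analysed here. The 250 bases upstream of each gene start were searched for a pair of heat shock units facing each other, GAANNTTC or TTCNNGAA, each of which reads the same on both strands. They were also searched for 3 such units in a row, which contain overlapping pairs, and on both strands for the ER stress element. A pair was present in 13.5% of 33469 promoters, a run of 3 units in 0.663% and the ER stress element in 0.0657%. Capitals mark the matches in the stretches below, which are written 5′ to 3′ on the strand of the gene.
Hspd1, chr9:64084242-64084287, minus strand: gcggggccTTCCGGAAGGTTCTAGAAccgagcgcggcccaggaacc
Hsph1, chr12:10427308-10427367, plus strand: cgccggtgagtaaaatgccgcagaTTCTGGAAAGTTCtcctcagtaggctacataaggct
Hspa8, chr8:50080435-50080494, plus strand: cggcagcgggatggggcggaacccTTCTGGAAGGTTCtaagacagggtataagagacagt
Dnajb1, chr19:41431142-41431179, minus strand: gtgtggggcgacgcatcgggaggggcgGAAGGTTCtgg
Hspb1, chr12:26432388-26432447, minus strand: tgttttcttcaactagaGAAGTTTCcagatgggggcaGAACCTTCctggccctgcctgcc
Hspa5, chr3:38452952-38453011, plus strand: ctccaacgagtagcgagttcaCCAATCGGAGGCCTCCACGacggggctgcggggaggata
Runs of 3 units were found in Hspd1, Hsph1 and Hspa8, and isolated pairs in Dnajb1, Hspb1 and Hspb8. Hspa5 held the ER stress element, at positions -43 to -25 from its start, and no heat shock pair. A match describes the letters of the sequence and does not show that a factor was bound.

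The median log2 value per array ran from 4.11 to 4.16, and arrays correlated across probe sets at 0.989 to 0.997 within groups and 0.950 to 0.994 between groups. Differences are given as Dahl minus SHR on the log2 scale, from limma with Benjamini-Hochberg adjustment over all probe sets and a threshold of 0.05. The podocyte genes Nphs1, Podxl, Synpo and Wt1 had mean log2 values of 12.20, 12.02, 12.17 and 10.99, well above the array medians. Tubular transcripts were also present: the summed level of 20 proximal tubule markers, as log2 of the sum, was 14.64 to 16.23 in the Dahl rats and 16.42 to 16.85 in SHR, lowest in Dahl 6 weeks replicate 2. In isolated glomeruli, fewer cells of a type and less RNA per cell cannot be told apart.

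Over both ages, 5 of the 10 heat shock genes differed between the strains. Cryab, Hspb1 and Hspa5 were higher in Dahl, and Hspd1 and Hspa8 were lower. Of all probe sets, 34.7% passed in this comparison, 10.6% higher and 24.2% lower, so a share of this order is common on these arrays. The median difference of the 10 members was 0.15, beside -0.053 for all probe sets. At 4 weeks Hspa5, Cryab and Hsp90aa1 were higher in Dahl and no member was lower, against 12.0% of all probe sets called, 5.63% higher and 6.41% lower. The median of the members was then 0.65.

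At 6 weeks 0 of 10 members passed in limma, where 3.28% of all probe sets did. An unadjusted p under 0.05 was seen for 4 members and for 10588 of the 31042 probe sets. The median difference of the 10 members was -0.15. From 4 to 6 weeks, 0 members passed in Dahl and 0 in SHR, where 0.0805% and 2.42% of all probe sets passed. Before adjustment 3 and 5 members were below 0.05, as were 2718 and 4714 of the 31042 probe sets. In SHR 9 of the 10 members were above 0 (median 0.48, beside -0.0069 for all probe sets). In Dahl 7 of them were below 0 (median -0.22, beside -0.0093). These age contrasts share their 4-week arrays with the strain contrast at 4 weeks. The interaction, the change of the strain difference from the younger to the older rats, was called for 0 members and 0.519% of probe sets. Its unadjusted p was under 0.05 for 5 members and for 3404 of the 31042 probe sets.

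**Figure D1:**
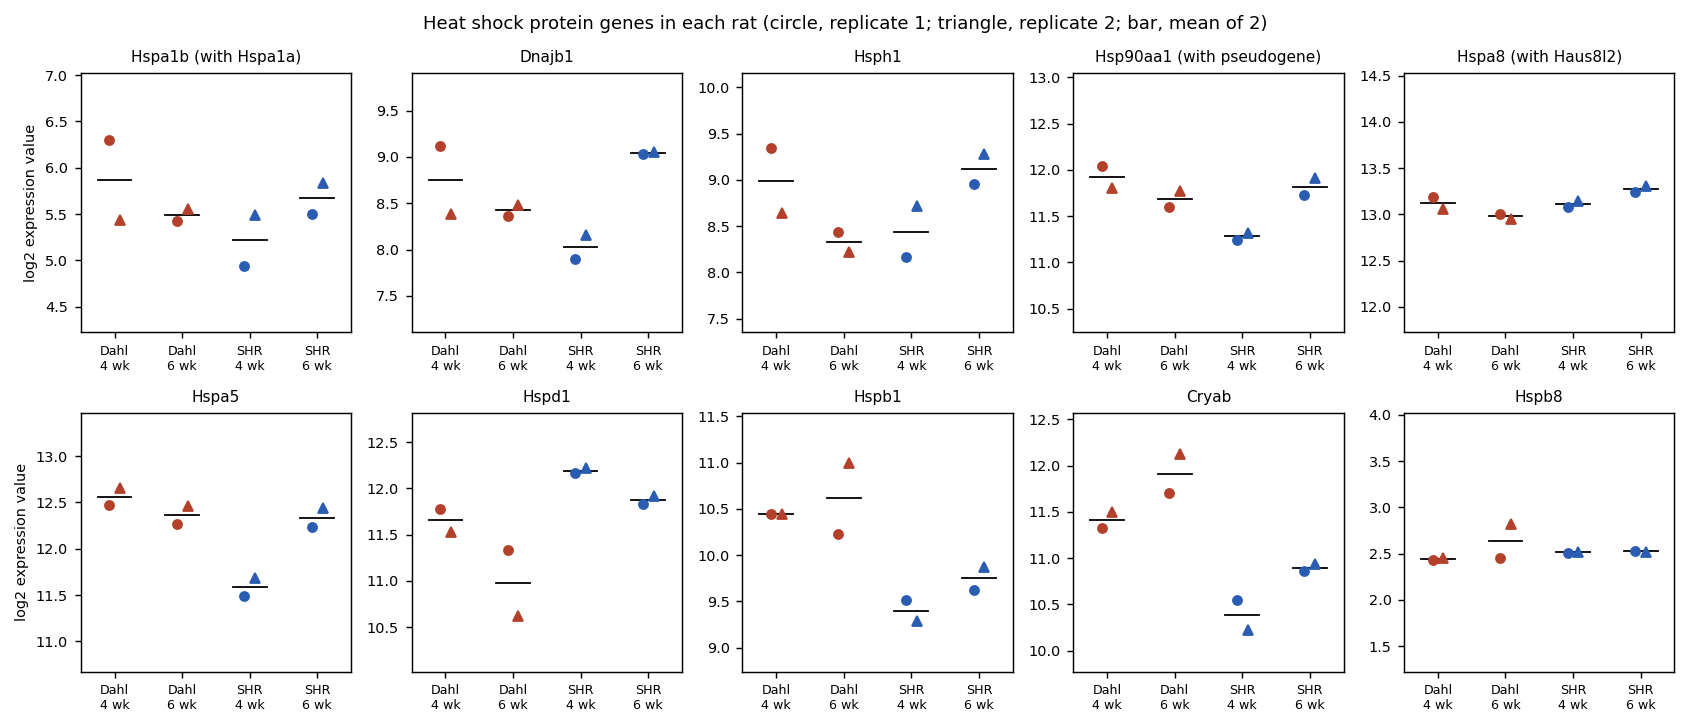
Log2 expression value of the main probe set of each of the 10 genes in each rat, with strain and age on the horizontal axis, a circle for replicate 1, a triangle for replicate 2 and a bar at their mean. Every panel spans the same log2 range. Cryab and Hspb1 lie higher in all 4 Dahl rats than in all 4 SHR rats and Hspd1 lower, while Hspa5 and Hsp90aa1 are lowest in the SHR rats aged 4 weeks.

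The small heat shock proteins Cryab and Hspb1 gave the largest strain differences among the members over both ages. Cryab encodes alpha B-crystallin, which binds desmin and other filaments. Its log2 values were 11.33 and 11.50 in Dahl at 4 weeks and 11.70 and 12.13 in Dahl at 6 weeks. In SHR they were 10.55 and 10.22 at 4 weeks and 10.86 and 10.93 at 6 weeks. The lowest Dahl rat lay above the highest SHR rat, and within both strains the older rats lay above the younger ones. Over both ages Cryab was higher in Dahl by 1.02 (SE 0.13, adjusted p = 0.0118), a fold of 2.03. The difference was 1.03 at 4 weeks (adjusted p = 0.0337) and 1.02 at 6 weeks (adjusted p = 0.0575, past the threshold in 4 of 16 alternative settings, at 0.0181 with an intensity trend and robust prior). The call over both ages held in all 16 alternative settings, with adjusted p from 0.00253 to 0.0475. The call at 4 weeks was lost on leaving out either rat of Dahl at 4 weeks, SHR at 4 weeks or SHR at 6 weeks, with adjusted p up to 0.141. It was also lost with the replicate block (adjusted p = 0.0638) and by the methods' test with adjustment (0.139).

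Hspb1 encodes HSP27, which caps actin filaments and is phosphorylated under stress. The Dahl rats had log2 values of 10.45 and 10.45 in Dahl at 4 weeks and 10.23 and 11.00 at 6 weeks. The SHR rats had 9.51 and 9.28 at 4 weeks and 9.62 and 9.87 at 6 weeks. The strains did not overlap, and the rats of Dahl at 6 weeks were the furthest apart. Hspb1 was higher in Dahl by 0.96 over both ages (SE 0.19, adjusted p = 0.0274), a fold of 1.94. The differences of 1.05 at 4 weeks and 0.87 at 6 weeks had adjusted p values of 0.0702 and 0.117. The first passed in 5 of 16 alternative settings, among them an intensity trend with robust prior (adjusted p = 0.0283). The fits without either rat of Dahl at 6 weeks are also among these 5. At 4 weeks they are the same test, because that group then adds nothing to the spread. The second was 1.25 without Dahl 6 weeks replicate 1, where replicate 2 (11.00) alone stood for that group. The call over both ages was lost on leaving out any rat of Dahl at 4 weeks or of SHR, with differences from 0.89 to 1.02 and adjusted p up to 0.0849.

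Hspb8, the small heat shock protein that works with Bag3 in selective autophagy, gave values near the bottom of the array's range. They were 2.43, 2.45, 2.46 and 2.82 in Dahl and 2.51, 2.52, 2.53 and 2.52 in SHR, all under the median of all values (4.14), and its other probe set was dimmer still. The difference over both ages was 0.019 (95% interval -0.20 to 0.24), and its sign turned with median centring of the arrays (-0.020).

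Of 6 other small heat shock genes, 1 was higher and 2 lower over both ages (median -0.11), beside 10.6% and 24.2% of all probe sets. The gene that was higher was Hspb2, which lies next to Cryab in the GRCr8 annotation. Its log2 values were 4.92 and 4.78 in Dahl at 4 weeks, 4.93 and 5.46 in Dahl at 6 weeks, 3.82 and 3.41 in SHR at 4 weeks and 3.09 and 4.05 in SHR at 6 weeks. The strains did not overlap, and the difference was 1.43 (adjusted p = 0.0245). That call was lost without either rat of Dahl at 4 weeks, without Dahl 6 weeks replicate 2 and without SHR 4 weeks replicate 2, with adjusted p from 0.0603 to 0.0730. Hspb6 and the dim Hspb3 were lower by -0.23 and -0.058.

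Cryab, Hspb1 and Hspb2 are also expressed in muscle, and some muscle markers moved with strain on these arrays. Of all probe sets, 10.6% were higher and 24.2% lower in Dahl. Among 12 markers of mesangial and smooth muscle cells, Dahl was higher in 8 and lower in 1 over both ages (median 0.67), among them Des, the gene for desmin, by 1.68. Their summed level was 11.80 to 12.06 in Dahl and 10.86 to 11.40 in SHR. Of 18 striated muscle markers 5 were higher and 5 lower (median -0.058, beside -0.053 for all probe sets). Myom2 was 4.64 higher and Synpo2l 4.25 higher. However, 14 of the 18 had means under the median of all values (4.14), with Ckm and Mb near the bottom of the range. The summed level of the 18 was 12.21 to 12.95 in Dahl and 10.48 to 12.12 in SHR. Tnnc1 gave most of it, with 11.92 to 12.62 in Dahl and 10.30 to 12.05 in SHR. Of 11 podocyte markers 5 were higher and 0 lower (median 0.48), and of 11 endothelial markers 5 and 0 (median 0.34). Dahl 6 weeks replicate 2 was the highest of the 8 rats for Cryab (12.13), Hspb1 (11.00) and Hspb2 (5.46). That rat also had the highest median deviation from the marker means for the podocyte (0.49) and endothelial (0.59) markers. For the mesangial and smooth muscle markers it had 0.30, below the 0.44 of Dahl 4 weeks replicate 2. The part of muscle, mesangial, podocyte or endothelial cells in the Cryab, Hspb1 and Hspb2 results was not tested.

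Hspa5, the HSP70 of the ER lumen also known as BiP, was the member with the smallest adjusted p at 4 weeks. The log2 values of Hspa5 were 12.47 and 12.65 in Dahl at 4 weeks and 12.27 and 12.46 in Dahl at 6 weeks, while SHR had 11.49 and 11.68 at 4 weeks and 12.23 and 12.44 at 6 weeks. The SHR rats aged 4 weeks were the lowest, and the ranges of the strains overlapped at 6 weeks. The difference at 4 weeks was 0.98 (SE 0.12, adjusted p = 0.0187), a fold of 1.97. At 6 weeks it was 0.031 (95% interval -0.29 to 0.35, and -0.0011 with median centring). Over both ages Hspa5 was higher in Dahl by 0.50 (SE 0.088, adjusted p = 0.0216).

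The difference of Hspa5 from 4 to 6 weeks was 0.75 in SHR (adjusted p = 0.0627) and -0.20 in Dahl (adjusted p = 0.758). The interaction was -0.94 (95% interval -1.40 to -0.49, unadjusted p from limma 0.00317, adjusted p = 0.144), so a change of the strain difference with age did not pass. The call at 4 weeks was lost without Dahl 4 weeks replicate 2, SHR 4 weeks replicate 1 or SHR 4 weeks replicate 2, with adjusted p from 0.0542 to 0.0785. The call over both ages was lost without Dahl 4 weeks replicate 2, Dahl 6 weeks replicate 2 or either SHR rat aged 6 weeks (adjusted p from 0.0533 to 0.0667). The methods' test with adjustment ended both calls (adjusted p = 0.131 and 0.140), and without adjustment it also ended the call over both ages.

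Genes that work with Hspa5 in the ER were described from a list of 25 genes of ER folding and the unfolded protein response, 24 of them measured. At 4 weeks 10 were higher in Dahl, 1 was lower and 13 did not pass, with a median of 0.49, where 5.63% of all probe sets were higher and 6.41% lower. They were Sdf2l1 (1.11), Manf (1.02), Pdia4 (1.00), Pdia6 (0.87), Creld2 (0.84), Hsp90b1 (0.72), Dnajb11 (0.67), Hspa13 (0.62), Pdia3 (0.51) and P4hb (0.33), which encode lumenal chaperones, disulfide isomerases and secreted or resident ER stress products. Edem1, which directs misfolded glycoproteins to degradation, was lower by -0.86. At 6 weeks 0 of 24 passed in limma (smallest adjusted p = 0.0539), 3 were higher by an unadjusted Student's test as the methods name it, and the median was -0.024.

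Hsp90b1, the HSP90 of the ER, shows the pattern in single rats, with log2 values of 11.51 and 11.59 in Dahl at 4 weeks, 11.41 and 11.46 in Dahl at 6 weeks, 10.82 and 10.84 in SHR at 4 weeks and 11.32 and 11.47 in SHR at 6 weeks. As for Hspa5, the SHR rats aged 4 weeks were the lowest and the strains overlapped at 6 weeks. Its difference at 4 weeks had an adjusted p of 0.00864 and held in 15 of 16 alternative settings.

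In SHR from 4 to 6 weeks Sdf2l1 (1.20), Pdia6 (0.60) and Hsp90b1 (0.57) rose and no listed gene fell, against 1.50% of all probe sets called higher at 6 weeks. The interaction was called for 0 of the 24 genes (smallest adjusted p = 0.0719, median -0.34), beside the 0.519% given above. Pdia6 and Pdia4 were also the nearest genes to Hspa5 on the array when deviations from each gene's mean were compared over the 8 arrays, with root mean square differences of 0.069 and 0.078, followed by Nup205 at 0.084.

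Over both ages 10 of the 24 genes were higher and 3 lower (median 0.30), beside 10.6% and 24.2% of all probe sets. Hyou1, an ER member of the HSP110 family, had the largest difference (1.26), and Sel1l (0.72) and Dnajb9 (0.60) were also higher. Herpud1 (-0.48) and the dim Trib3 (-0.29, mean log2 value 3.70) were lower together with Edem1 (-0.68), so the members did not all move one way. The count of 10 genes higher at 4 weeks was 5 without Dahl 4 weeks replicate 1 and 1 without replicate 2. It was 4 without either SHR rat aged 4 weeks and 6 without either SHR rat aged 6 weeks. The count over both ages fell to between 4 and 6 without Dahl 4 weeks replicate 2, Dahl 6 weeks replicate 2 or any SHR rat.

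Some other transcripts were also low in the SHR rats aged 4 weeks. Of 13 leukocyte markers 5 were higher in Dahl and 3 lower at 4 weeks (median -0.023). Over all probe sets the shares were 5.63% and 6.41%. Aif1 (3.06), Csf1r (2.05), Tyrobp (1.99) and Ptprc (1.96) were higher. Mrc1 (-1.88) and the dim Cd3e (-0.41) and Cd163 (-0.18) were lower. Mrc1 was highest in the SHR rats aged 4 weeks (7.11 and 7.27). Of the 13 markers 7 had means under the median of all values (4.14). At 6 weeks 0 were higher and 1 lower, where 3.28% of all probe sets passed. The summed level of the 13, to which Lyz2 gave the largest part, was 9.83 and 9.47 in SHR at 4 weeks. It was 11.21 and 11.06 in SHR at 6 weeks and 10.73 to 11.79 in Dahl. Of the 12 mesangial and smooth muscle markers 6 were higher in Dahl and 0 lower at 4 weeks, and 1 was higher and 0 lower at 6 weeks. Tagln differed by 1.92 and 0.48 at these ages and Myl9 by 1.33 and -0.25, with an interaction called for Myl9 (adjusted p = 0.0470). Their summed level was 10.86 and 10.88 in SHR at 4 weeks and 11.39 and 11.40 in SHR at 6 weeks. The part of leukocytes or mesangial cells in the Hspa5 result was not tested.

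**Figure D2:**
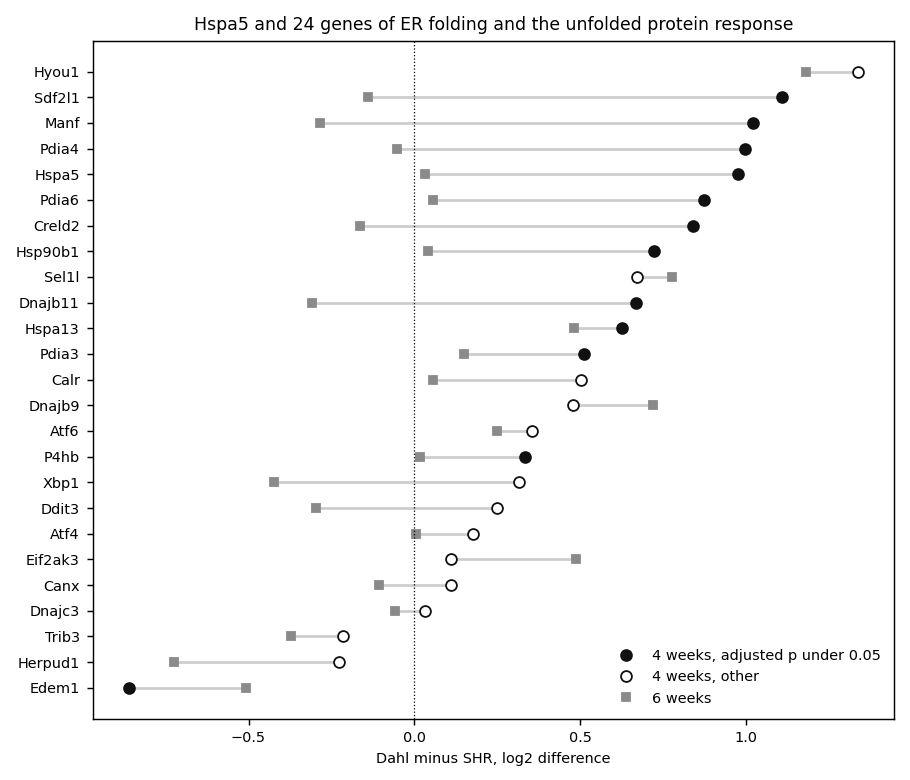
Dahl minus SHR log2 difference (horizontal axis) at 4 weeks (circles, filled where the adjusted p from limma was under 0.05) and at 6 weeks (squares) for Hspa5 and 24 genes of ER folding and the unfolded protein response, ordered by the difference at 4 weeks; a line joins the ages. Hspa5 moves from 0.98 to 0.031 beside Pdia4, Pdia6 and Hsp90b1, while Hyou1, Sel1l and Dnajb9 stay above 0 at both ages and Edem1 stays below.

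Hspd1 encodes the mitochondrial chaperonin HSP60, and it was lower in Dahl. The log2 values of Hspd1 were 11.78 and 11.53 in Dahl at 4 weeks and 11.33 and 10.62 in Dahl at 6 weeks. The corresponding SHR values were 12.17 and 12.22 at 4 weeks and 11.83 and 11.92 at 6 weeks. All Dahl rats lay below all SHR rats, with Dahl 6 weeks replicate 2 the lowest. The difference over both ages was -0.72 (SE 0.17, adjusted p = 0.0375), 1.65-fold lower. At 4 weeks it was -0.54 (adjusted p = 0.170) and at 6 weeks -0.90 (adjusted p = 0.101, and 0.0364 with an intensity trend and robust prior). Without Dahl 6 weeks replicate 1 the difference at 6 weeks was -1.255, where replicate 2 (10.62) alone stood for that group. The call over both ages was lost in 9 of 16 alternative settings, including quantile normalization (adjusted p = 0.0751) and the removal of any rat of Dahl at 4 weeks or of SHR (adjusted p from 0.0682 to 0.110). It was kept without either rat of Dahl at 6 weeks, in fits where that group added nothing to the estimate of the spread.

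Other mitochondrial chaperone genes of the lists were brought together after their values had been seen. Hspe1, Trap1, the brightest probe set of Hspa9 and the HSP40 gene Dnajc15 (-0.37, adjusted p = 0.0216) were lower in Dahl, whereas the HSP40 genes Dnaja3 (-0.26, adjusted p = 0.208) and Dnajc19 (-0.28, adjusted p = 0.270) did not pass. Hspe1 encodes HSP10, the lid of the HSP60 chamber, and lies next to Hspd1 in the GRCr8 annotation. Its log2 values were 12.24, 12.09, 11.78 and 11.11 in Dahl and 12.32, 12.66, 12.33 and 12.47 in SHR, in the order of age and replicate. The difference was -0.64 (adjusted p = 0.0476), and without Dahl 6 weeks replicate 2 it was -0.47 (adjusted p = 0.0676). Removal of any rat of Dahl at 4 weeks or of SHR also ended this call, with adjusted p up to 0.131. Trap1, the mitochondrial HSP90, was lower by -0.44 (adjusted p = 0.0145) and stayed past the threshold in all 16 settings.

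Hspa9, the mitochondrial HSP70 also known as mortalin, was lower by -0.72 on its brightest probe set (adjusted p = 0.0148). Its 4 probe sets disagreed: another was lower by -0.46 (adjusted p = 0.0472), and the remaining probe sets gave -0.045 and 0.52 without passing. Their mean gave -0.18 (adjusted p = 0.144), and the call on the brightest probe set was also lost without either SHR rat aged 6 weeks (adjusted p = 0.0515 and 0.0579).

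Tubular markers were lower in the same arrays. Of 20 proximal tubule markers 0 were higher and 4 lower in Dahl over both ages (median -1.10), among them Dpep1 by -2.95. Of 14 distal nephron markers 0 were higher and 5 lower (median -0.81). Over all probe sets 10.6% were higher and 24.2% lower, so the proximal count is near that share. The direction is seen in the medians, and 0 of the 20 and 0 of the 14 differences lay above 0. Dahl 6 weeks replicate 2, the rat with the lowest Hspd1 and Hspe1, had a median deviation of -1.98 over the proximal tubule markers, where the other Dahl rats had 0.16, -0.11 and -0.24. The part of tubular cells in the Hspd1 result was not tested. Without that rat the Hspd1 difference over both ages was -0.54, where replicate 1 (11.33) alone stood for Dahl at 6 weeks. In the proximal tubule markers the other Dahl rats still lay below the SHR rats, whose median deviations were 0.26 to 0.91. The nearest genes to Hspd1 over the 8 arrays were Eno1, Scpep1 and Abca3, with root mean square differences of 0.080 to 0.085.

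**Figure D3:**
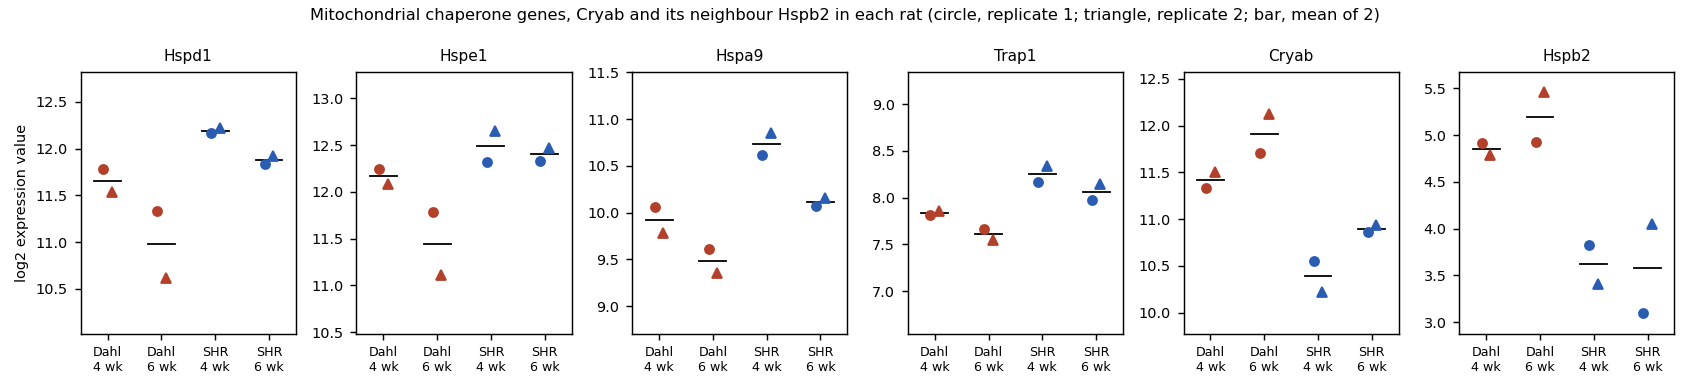
Log2 expression value in each rat of the mitochondrial chaperone genes Hspd1, Hspe1, Hspa9 (brightest probe set) and Trap1, and of Cryab and its genomic neighbour Hspb2, with strain and age on the horizontal axis, a circle for replicate 1, a triangle for replicate 2 and a bar at their mean, all panels on the same log2 range. Hspd1, Hspe1 and Trap1 lie lower in all Dahl rats than in all SHR rats, Cryab and Hspb2 higher, and Dahl 6 weeks replicate 2 is lowest for Hspd1 (10.62) and Hspe1 (11.11).

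In limma on the main probe sets of all arrays, no strain difference passed for the heat-inducible cytosolic chaperones Hspa1b, Dnajb1 and Hsph1, whose values differed within groups. Hspa1b and Hspa1a encode the inducible HSP70. The shared probe set gave log2 values of 6.30 and 5.44 in Dahl at 4 weeks and 5.43 and 5.56 in Dahl at 6 weeks. In SHR it gave 4.94 and 5.49 at 4 weeks and 5.50 and 5.84 at 6 weeks. Dahl 4 weeks replicate 1 was the highest and SHR 4 weeks replicate 1 the lowest, and all other rats lay between 5.43 and 5.84. The difference over both ages was 0.24 (95% interval -0.39 to 0.87, adjusted p = 0.449). A probe set annotated to Hspa1a alone gave 7.13, 5.92, 6.17 and 6.94 in Dahl and 5.30, 5.62, 5.90 and 6.07 in SHR, a difference of 0.82 that did not pass (adjusted p = 0.106).

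Dnajb1, the HSP40 partner of inducible HSP70, had log2 values of 9.11 and 8.38 in Dahl at 4 weeks and 8.36 and 8.49 in Dahl at 6 weeks. In SHR they were 7.90 and 8.15 at 4 weeks and 9.03 and 9.05 at 6 weeks. The older SHR rats were thus close to the highest Dahl rat, and the younger SHR rats were the lowest. The strain difference was 0.72 at 4 weeks (adjusted p = 0.116) and -0.62 at 6 weeks (adjusted p = 0.156), and 0.055 over both ages. At 4 weeks it passed as the mean of both probe sets (0.84, adjusted p = 0.0427). The difference at 4 weeks was 1.09 without Dahl 4 weeks replicate 2, where replicate 1 (9.11) alone stood for that group. At 6 weeks the strain difference passed by the methods' test without adjustment. The interaction of -1.34 had an adjusted p of 0.261. The dimmer probe set gave 0.95 at 4 weeks (adjusted p = 0.0740) and -0.16 at 6 weeks.

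Hsph1 encodes HSP110, the exchange factor of HSP70. For this gene the log2 values were 9.34 and 8.64 in Dahl at 4 weeks and 8.43 and 8.22 in Dahl at 6 weeks. The SHR rats had 8.16 and 8.71 at 4 weeks and 8.95 and 9.27 at 6 weeks. The strains overlapped at 4 weeks, and at 6 weeks both SHR rats lay above both Dahl rats. The difference was 0.55 at 4 weeks (adjusted p = 0.236), -0.79 at 6 weeks (adjusted p = 0.150) and -0.12 over both ages, and the dimmer probe set gave 0.57, -0.68 and -0.054. The interaction was -1.34 (adjusted p = 0.359).

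The rats of a group differed in these inducible genes. In Dahl at 4 weeks Hspa1b, Dnajb1 and Hsph1 were each more than 0.50 higher in replicate 1 than in replicate 2, as were 3.41% of all probe sets. The dimmer Dnajb1 probe set did not show this, with 6.95 in replicate 1 and 6.98 in replicate 2. In SHR at 4 weeks Hspa1b and Hsph1 were more than 0.50 lower in replicate 1, as were 2.60% of all probe sets. In SHR at 6 weeks 0 members differed by that much, and in Dahl at 6 weeks Hspd1 was higher and Hspb1 lower in replicate 1. Immediate early genes, which respond within minutes to many stimuli, differed by strain: of 21 measured, 12 were higher and 2 lower in Dahl over both ages (median 0.59, beside 10.6% and 24.2% of all probe sets), with Fos 3.25 and Nr4a1 2.05 higher. Their summed level was highest in the rats of Dahl at 6 weeks (13.58 and 13.75).

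The heat shock factors themselves gave no call. Of 5 listed 4 were measured, and 0 passed over both ages (smallest adjusted p = 0.174). Hsf1 differed by 0.085 and Hsf2 by 0.094, Hsf4 was dim with a difference of -0.17, and the binding protein Hsbp1 differed by 0.0043.

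Hsp90aa1 encodes the inducible cytosolic HSP90. Its probe set gave log2 values of 12.05 and 11.80 in Dahl at 4 weeks and 11.60 and 11.78 in Dahl at 6 weeks. In SHR it gave 11.24 and 11.32 at 4 weeks and 11.72 and 11.91 at 6 weeks. As for Hspa5, the SHR rats aged 4 weeks were the lowest and the strains overlapped at 6 weeks. The difference at 4 weeks was 0.64 (SE 0.12, adjusted p = 0.0357), a fold of 1.56, and the dimmer probe set gave 0.67 without passing (adjusted p = 0.0584). At 6 weeks the difference was -0.13 (adjusted p = 0.430), and the interaction was -0.77 (adjusted p = 0.180). The call at 4 weeks was lost on leaving out either rat of Dahl at 4 weeks, SHR at 4 weeks or SHR at 6 weeks, with adjusted p from 0.0703 to 0.112. It was also lost with the replicate block (adjusted p = 0.0670) and by the methods' test with adjustment (0.145). Its nearest genes were P4ha1, Cacybp and Tbccd1, with root mean square differences of 0.062 to 0.082.

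Hspa8, the constitutive cytosolic HSP70, had a narrow range of values. Its log2 values were 13.19 and 13.06 in Dahl at 4 weeks and 13.01 and 12.95 in Dahl at 6 weeks. In SHR they were 13.08 and 13.15 at 4 weeks and 13.24 and 13.30 at 6 weeks. The strains overlapped at 4 weeks, and at 6 weeks both Dahl rats lay below both SHR rats. The difference over both ages was -0.14 (SE 0.040, adjusted p = 0.0496) and was past the threshold in only 3 of 16 alternative settings. The removal of any rat other than Dahl 4 weeks replicate 1 ended the call, with adjusted p from 0.0644 to 0.137. At 4 weeks the difference was 0.014, and -0.032 with median centring. At 6 weeks it was -0.29 (adjusted p = 0.0632, and 0.0423 with an intensity trend and robust prior).

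**Figure D4:**
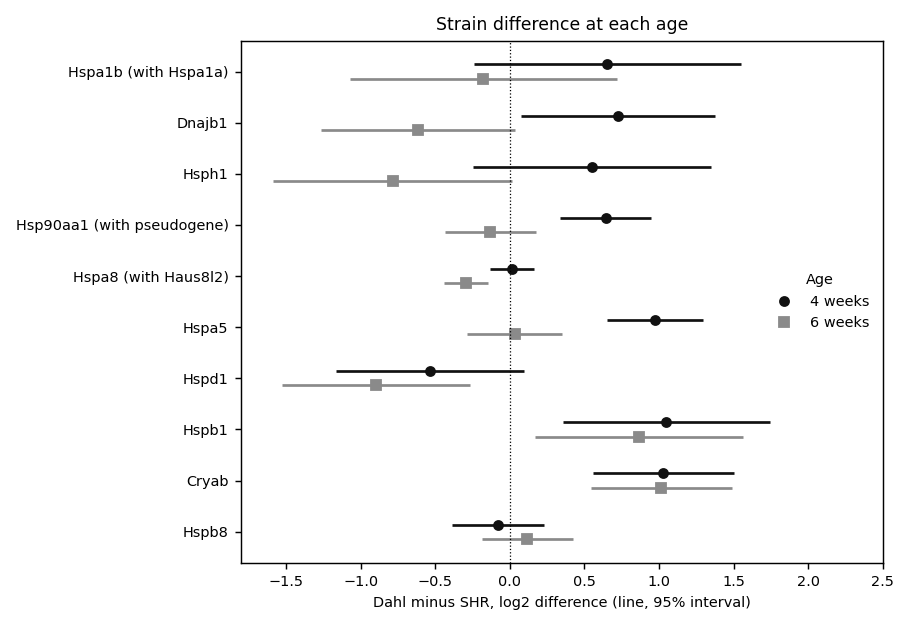
Dahl minus SHR log2 difference of the main probe set of each member (points) with its 95% interval from limma (lines) at 4 weeks (circles) and 6 weeks (squares). Cryab and Hspb1 lie above 0 and Hspd1 below 0 at both ages, whereas Hspa5 is at 0.98 and 0.031 and Hsp90aa1 at 0.64 and -0.13.

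The wider chaperone families moved in both directions over both ages, where 34.7% of all probe sets passed. Of 10 other HSP70 and HSP110 genes, 4 were higher and 2 lower in Dahl (median 0.40). The dim Hspa4l (0.71, mean log2 value 3.43), Hspa13 (0.55), Hspa12a (0.46) and Hspa4 (0.37) were higher. Hspa9 and the dim Hspa1l (-0.065) were lower. Of 21 other HSP40 genes, 1 was higher and 6 lower (median -0.16). Dnajb6, which suppresses protein aggregation, was lower by -0.52, and Dnajc15, Dnajb12, Dnajc21, Dnajc2 and Dnajc7 were lower by -0.37 to -0.16. Dnajb4 was higher by 0.31, and in SHR it rose by 1.20 from 4 to 6 weeks (adjusted p = 0.0162). Of the 3 other HSP90 genes, Hsp90b1 was higher (0.38), Trap1 was lower and Hsp90ab1, the constitutive cytosolic form, did not pass (0.18, adjusted p = 0.100).

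Among 9 chaperonin genes 1 was higher and 2 lower (median -0.054). Cct6a, a subunit of the cytosolic chaperonin that folds actin and tubulin, had log2 values of 9.55, 9.50, 9.22 and 9.18 in Dahl and 8.85, 8.83, 8.66 and 8.67 in SHR. It was higher in Dahl over both ages (0.61, adjusted p = 0.00173), at 4 weeks (0.69) and at 6 weeks (0.54), whereas the subunit Tcp1 was lower by -0.32 and Hspe1 is described above. Of 20 co-chaperones Bag5 was higher (0.41), Pfdn2 was lower (-0.073) and 18 did not pass (median -0.064). Among these 18 was the heat-inducible Bag3 (0.14, adjusted p = 0.128). Fkbp5 had the largest difference of the 20 and did not pass either (-1.38, adjusted p = 0.0523). Its log2 values were 11.10 and 10.76 in SHR at 4 weeks and 7.87 to 9.28 in the other rats.

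The remaining nearest genes over the 8 arrays were chosen by the same measure. For Cryab they were Anxa3, Vamp5 and Tlnrd1 (root mean square differences of 0.083 to 0.092), and for Hspb1 Rasgrp2, Map3k20 and Bcl6b (0.109 to 0.126). Dnajb1 and Hsph1 shared Rabl2 as their nearest gene, at 0.120 and 0.161, followed by Zfp213 and Lsm2 for Dnajb1 and by Smim8 and Ttk for Hsph1. For Hspa1b they were Mtss2, Smyd2 and Gtse1 (0.128 to 0.155), and for Hspa8 Edf1, G3bp1 and Trip12 (0.025 to 0.041). For the dim Hspb8, whose own values hardly varied, they were Ldlrad4, Wdfy4 and Mat1a (0.017 to 0.021). Of 10 parietal epithelium markers 2 were higher and 2 lower in Dahl over both ages, and of 4 erythroid markers 0 and 1. Over all probe sets 10.6% were higher and 24.2% lower.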

How the data were processed

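Total RNA of isolated glomeruli was labelled as biotinylated cRNA and hybridized to Affymetrix rat genome arrays, 1 per rat. The deposited log2 values had been background-corrected, normalized and summarized per probe set by the authors. The submitters' notes name RMA and GCRMA without saying which applies. Of 31099 probe sets, 57 controls were left out. Gene names are those of the platform annotation at GEO: 1 gene for 20826 probe sets, several for 436 and none for 9780. A gene is represented by its probe set with the highest mean.

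Means of the 4 groups were modelled by limma 3.58.1 (R 4.3.3) with 4 residual and 0.921 prior degrees of freedom, checked on simulated data, with Benjamini-Hochberg adjustment over 31042 probe sets and a threshold of 0.05. The number of arrays limits the precision. Genes named are the members, the 3 nearest genes of each, and the members of each list with the largest differences over both ages among those that passed; others were named after their values had been seen. The members and lists were chosen with earlier results of these data known. As 16 alternatives, the fit was repeated with a trend on intensity and robust prior, quantile normalization, median centring, a replicate block, the brighter 50% of probe sets, the mean over a gene's probe sets, the methods' t-test (Student's unpaired test) with and without adjustment, and each array left out. A nearest gene has the smallest root mean square difference between log2 deviations from the mean over 8 arrays. Promoters came from RefSeq (GRCr8), and no protein sequences were used.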

Additional observations from a re-analysis of the deposited data

Results flagged for a closer look

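In each strain, the 4 rats of both ages were checked for a rat far from the others, by the gap to the nearest rat divided by the range of the 4 against Dixon's 95% critical value. Chance marks about 1 in 20 such groups, and 3 of the 20 checked were marked. Hspa1b was highest in Dahl 4 weeks replicate 1 (6.30, next 5.56, ratio 0.852), and so was Dnajb1 (9.11, next 8.49, ratio 0.833). On the dimmer Dnajb1 probe set that rat (6.95) lay below Dahl 4 weeks replicate 2 (6.98). Hspb8 was highest in Dahl 6 weeks replicate 2 (2.82, next 2.46, ratio 0.920), at a level near the bottom of the array's range. The groups mix both ages, so a difference of age is part of the range.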

How the results depend on the processing

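With 2 rats per group most calls lie near the threshold, and counts of calls depend on the setting. Of 621 values of single genes under alternatives, 497 kept direction and side of the threshold, 88 lost a call, 22 gained one and 14 changed sign. The alternatives for genes of the wider lists and for counts of ER folding genes were added after seeing the data. Leaving out each array gave 1 to 5 members over both ages (5 with all arrays), 0 to 5 at 4 weeks (3 with all), 0 to 4 at 6 weeks, 0 to 2 for age in Dahl, 0 for age in SHR and 0 to 1 for the interaction. For ER folding genes higher in Dahl it gave 4 to 9 over both ages, 1 to 9 at 4 weeks and 0 to 1 at 6 weeks. The 4 members at 6 weeks, the 2 for age in Dahl and the 1 for the interaction came without Dahl 6 weeks replicate 1. In that fit replicate 2 alone stood for Dahl at 6 weeks, so that group added nothing to the estimate of the spread. With all arrays its rats differed most over all probe sets (SD 0.39, against 0.21 to 0.27 in the other groups). The causes of these changes were not tested.

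Deviations of same-numbered rats correlated across probe sets at -0.23 to 0.24. This does not settle whether the replicate numbers pair the samples, and the main fit did not pair them. The replicate block gave 3 members over both ages, 1 at 4 weeks, 1 for age in SHR and 1 for the interaction, and 5 ER folding genes at 4 weeks. Quantile normalization gave 3 over both ages and 1 for age in SHR. The methods' t-test gave 2, 0 and 0 members after adjustment over both ages, at 4 and at 6 weeks, and 3, 5 and 3 without it, with 4 for age in SHR. Of ER folding genes it called 5 over both ages either way, 0 at 4 weeks after adjustment and 3 at 6 weeks without it. In limma without adjustment, 16474, 11491 and 10588 of the 31042 probe sets had p under 0.05 over both ages, at 4 and at 6 weeks. Shares of all probe sets called in the alternative settings are not given here, so counts under them cannot be set against a share. An intensity trend with robust prior gave 3 members and 4 ER folding genes at 6 weeks. The brighter probe sets alone gave 1 and 2 there, and 2 members for age in SHR.

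Signs that turned belonged to differences that were not called. Over both ages these were Hspb8 (-0.020 with median centring, -0.072 to 0.11 on leaving out arrays), Dnajb1 (-0.13 to 0.24) and Hsph1 (-0.29 to 0.057). At 4 weeks it was Hspa8 (-0.0014 with quantile normalization, -0.032 with median centring, -0.048 to 0.076 on leaving out arrays). At 6 weeks they were Hspb8 (-0.065 to 0.30) and Hspa5 (-0.0011 with median centring, -0.070 to 0.13 on leaving out arrays).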
